A study of Sus scrofa with 19 samples.

Results

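The genes described here are targets of p53 in the response to DNA damage: CDKN1A, MDM2, GADD45A, BAX, BBC3, SESN1, TP53INP1, ZMAT3 and CCNG1. They were chosen by name, found by symbol in the authors' table and joined by Ensembl ID to the raw count files. Of the 9 genes listed, 8 were found among the 25879 genes of the count files, and all 8 passed the filter on low counts with 13552 genes in all. BAX was not found by symbol, so its expression was not analysed here, and only the sequence around its start was searched.

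RNA was sequenced from LV myocardium of large white pigs labelled female, with 1 library per pig and 19 libraries in 5 groups. DOX pigs (n = 5) received doxorubicin and MYO pigs (n = 5) Myocet, which is doxorubicin enclosed in liposomes, both in 3 cycles of 60 mg/m2 body surface, and these experiments ended after 3 months because the health of the animals declined. RemoLV pigs (n = 3) had a balloon occlusion of the left anterior descending artery for 90 min followed by reperfusion, with the remote posterior wall sampled at 6 months. Hyper pigs (n = 3) grew around an aortic stent that narrowed the thoracic aorta relatively, with sampling in the sixth month of follow-up, and Control pigs (n = 3) are called sham-operated in the labels and healthy, untreated animals elsewhere in the study's text. Drug, follow-up time, series of animals and the Y chromosome reads described below differ together between DOX or MYO and the other groups and cannot be told apart.

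p53 is a transcription factor that is kept at a low level by MDM2, which marks it for degradation, and by MDM4, which covers its activation domain. DNA breaks, such as those that anthracyclines cause through topoisomerase II, activate the kinases ATM and ATR, p53 is then released, and it binds paired copies of a short motif near its targets. Among these targets CDKN1A, which encodes p21, and GADD45A restrain the cell cycle. BBC3, which encodes PUMA, and BAX promote apoptosis. SESN1 and TP53INP1 take part in the stress and autophagy response, ZMAT3 encodes an RNA-binding protein, and MDM2 and CCNG1 feed back on p53 itself.

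The libraries held 9527710 to 20370209 counts, with a median of 14527230. The names in the authors' table conflict with the labels of the count files: by rank correlation of their values, 8 of 19 columns belong to libraries that the files place in another group. The 3 Control and the 3 RemoLV libraries change places entirely, library 5 of DOX and library 1 of MYO change places, and libraries 1 and 3 of Hyper exchange numbers. The file labels are used below, and the leading comparisons set DOX and MYO against all 3 other groups, where Control and RemoLV stay on the same side, and against Hyper, which holds the same libraries under both namings. The libraries labelled RemoLV went against their label as LV tissue, since the atrial light chain gene MYL4 reached 6029 to 8130 CPM (counts scaled to library size) in them and at most 21.9 CPM elsewhere, while the ventricular gene MYL2 was at 18.6 to 115 CPM and at least 8975 CPM elsewhere. IRX4, another ventricular marker, had at most 2 counts in them. MYL7, another atrial marker, was at 3281 to 4770 CPM in RemoLV and was not confined to it. It was at 737 to 2379 CPM in DOX and MYO, 172 to 1229 CPM in Hyper and 59.1 to 111 CPM in Control. DDX3Y, a gene of the Y chromosome, was at 96.1 to 177 CPM in DOX and MYO and at no more than 2 counts in any other library, although all pigs are labelled female. Summed over 7 of 7 fibroblast markers, the level was 4600 to 7131 CPM in DOX and MYO, 10720 to 12380 in RemoLV, 1563 to 3923 in Hyper and 2076 to 3479 in Control. Of these markers, COL1A1, COL1A2 and COL3A1 were higher in all DOX and MYO libraries than in all Hyper and Control libraries. DCN, LUM, PDGFRA and POSTN overlapped Hyper, with DCN at 341 to 546 CPM in DOX and MYO and 331 to 571 CPM in Hyper. The part of tissue, sex and cell make-up in the results on the target genes was not tested. Sex as read from DDX3Y divides the libraries as the drug does, so these cannot be told apart. In bulk tissue fewer cells of a type and less RNA per cell cannot be told apart either.

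The DNA around the gene starts was searched for the p53 motif first, since binding there is what unites the genes. A full site was taken as 2 adjoining half-sites of 10 bases, each the consensus half-site of p53 with the core CNNG and A or T as both central bases, with purines before and pyrimidines after the core and at most 2 mismatches outside the cores, on both strands within 3000 bases on either side of the RefSeq start (Sscrofa11.1). Such a site was found at 4 of 9 listed genes, against 409 of 19570 genes searched (2.09%). The sites are shown because they are the letters through which p53 could bind these pig genes, with the 20 bases of the site in capitals and 15 flanking bases on each side in lower case, 5′ to 3′ on the strand of the site.
CDKN1A: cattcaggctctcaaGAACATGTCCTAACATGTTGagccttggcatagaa
MDM2: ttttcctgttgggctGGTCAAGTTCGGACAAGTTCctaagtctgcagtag
ZMAT3: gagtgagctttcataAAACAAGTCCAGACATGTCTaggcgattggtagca
CCNG1: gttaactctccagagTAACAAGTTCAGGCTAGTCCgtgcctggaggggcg

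The CDKN1A site lies at chr7:32352251-32352270 on the plus strand, 2525 bases upstream of the gene start, and has 2 mismatches. The MDM2 site lies at chr5:33106505-33106524 on the plus strand, in an intron 788 bases after the start, with 1 mismatch. ZMAT3 holds the site with 0 mismatches, at chr13:117145996-117146015 on the minus strand, 1624 bases into the gene in an intron. The CCNG1 site, at chr16:60356399-60356418 on the minus strand, is intronic as well, 319 bases after the start, with 1 mismatch. GADD45A, BAX, BBC3, SESN1 and TP53INP1 held 1 to 3 half-sites each and no full site of these letters, and 76.1% of all genes held a half-site. A match describes the sequence and does not show binding.

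Against the 3 other groups together, 4 of the 8 target genes rose in DOX and MYO and 2 fell. CDKN1A, BBC3, GADD45A and ZMAT3 rose by 1.15, 1.03, 0.54 and 0.50 on the log2 scale, and SESN1 and CCNG1 fell by 0.77 and 0.33. MDM2 (-0.11) and TP53INP1 (0.10) did not pass the test. The 3 other groups counted equally, as the mean of their levels on the log2 scale. CDKN1A and GADD45A rose against this mean although their Control means were above the DOX and MYO means. The test was edgeR's quasi-likelihood test on all 19 libraries, with Benjamini-Hochberg adjustment over 13552 genes and a call at an adjusted p of at most 0.05. The same rule called 45.5% of all genes tested, 23.7% higher and 21.8% lower, and the 6 of 8 stand against this background. Without the 3 libraries labelled RemoLV, 4 target genes were called (2 higher, 2 lower) beside 50.1% of all genes. Without library 2 of Control as well, 3 were called (1 higher, 2 lower) beside 52.4%. With all libraries, the median log2 fold change of the 8 target genes was 0.30 and that of all genes 0.01. No target gene reached the study's fold threshold of 2 on the log2 scale in this comparison, whereas 193 of all genes did.

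Against Hyper alone, 2 target genes rose (CDKN1A and BBC3) and 2 fell (SESN1 and CCNG1), while 32.6% of all genes were called, 15.8% higher and 16.9% lower. These 4 genes were also those whose 10 DOX and MYO libraries did not overlap the 3 Hyper libraries, a separation seen in 21% of all genes. CDKN1A, GADD45A and SESN1 did not overlap RemoLV (27.4% of all genes), and MDM2, BBC3 and CCNG1 did not overlap Control (27.7%). None of the 8 target genes separated the 10 drug libraries from all 9 others, as 3.11% of all genes did.

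**Figure D1:**
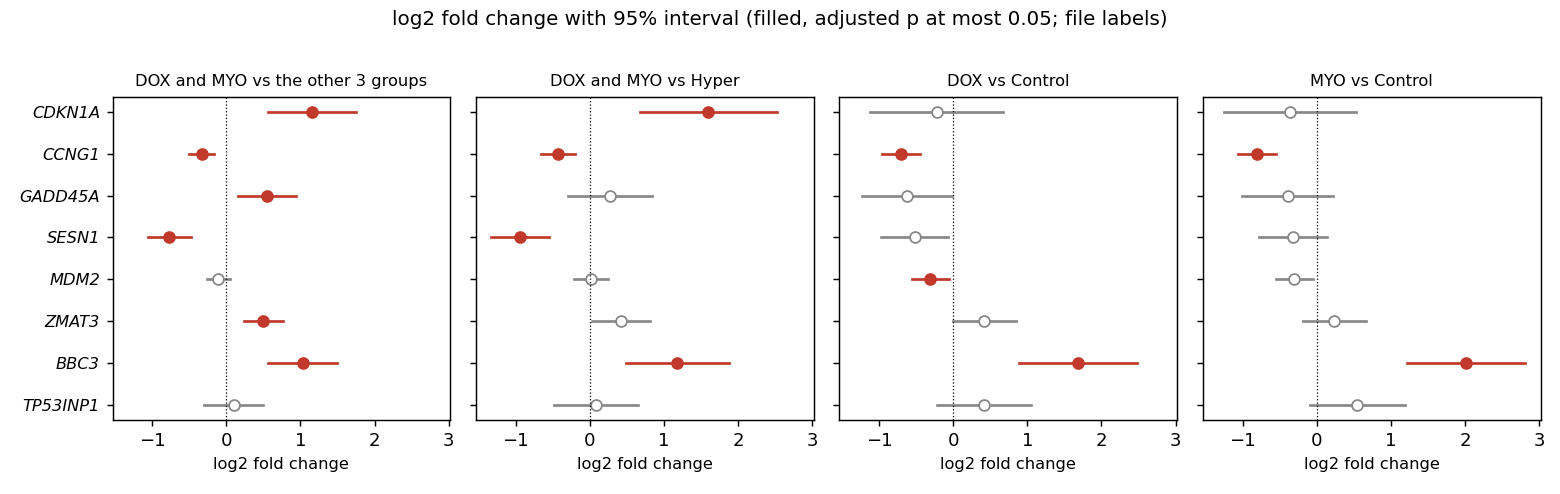
The log2 fold change of each target gene is plotted on the horizontal axis with its 95% interval in 4 comparisons by the labels of the count files, with filled red points for an adjusted p of at most 0.05 in edgeR's quasi-likelihood test. CDKN1A stands at 1.15 and 1.60 in the leading comparisons and at -0.22 and -0.36 against Control, whereas BBC3 lies right of 0 and CCNG1 left of 0 in all 4.

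CDKN1A encodes p21, the inhibitor of cyclin-dependent kinases through which p53 stops the cell cycle (Ensembl ENSSSCG00000001565, chr7:32354776-32363771, plus strand). It was at 43.3, 21.8, 27.3, 18.9 and 12.5 CPM in the DOX libraries 1 to 5. The MYO libraries had 29.8, 30.9, 18.1, 11.4 and 22.3 CPM. RemoLV stood at 5.49, 3.38 and 7.31 CPM and Hyper at 7.70, 6.70 and 8.98 CPM. Control was split, with 34.9, 8.55 and 43.7 CPM. All 10 drug libraries were thus above all RemoLV and Hyper libraries and above library 2 of Control, and they overlapped libraries 1 and 3 of Control, the last of which was the highest of all 19. The level was 2.22-fold higher than the mean of the other 3 groups on the log2 scale (log2 fold change 1.15, SE 0.28, edgeR adjusted p = 0.00308). It was 3.03-fold higher than in Hyper (1.60, SE 0.44, edgeR adjusted p = 0.01). The mean over libraries was 23.6 CPM in DOX and MYO and 14.1 CPM in RemoLV, Hyper and Control, with Control alone at 29.1 CPM.

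The CDKN1A call depended on which libraries entered. Without the 3 libraries labelled RemoLV the log2 fold change was 0.66 (edgeR adjusted p = 0.101), and without library 2 of Control as well it was 0.42 (adjusted p = 0.201). The difference from Hyper was 1.59 without library 1 of Hyper (adjusted p = 0.0526) and 1.50 without library 2 (adjusted p = 0.0505). Against Control by the file labels, neither DOX (-0.22, 95% interval -1.12 to 0.67) nor MYO (-0.36, -1.26 to 0.53) passed the test. With the table's names, which exchange Control and RemoLV, the same comparisons gave 2.41 (edgeR adjusted p = 8.02e-04) and 1.84 (adjusted p = 0.00552).

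GADD45A, whose product binds PCNA and p21 and acts in growth arrest and DNA repair, lies at chr6:144940702-144944089 on the minus strand (ENSSSCG00000037066). DOX libraries had 97.4, 39.6, 54.1, 62.9 and 109.8 CPM and MYO libraries 93.9, 111.9, 76.2, 73.7 and 72.4 CPM. Levels of 22.0, 25.2 and 17.6 CPM were found in RemoLV, the lowest of all groups, with no overlap with any other library. Hyper had 64.0, 74.4 and 57.1 CPM, within the range of the drug libraries. Control again was split, with 123.2 and 153.6 CPM in libraries 1 and 3 and 60.4 CPM in library 2. The log2 fold change against the 3 other groups was 0.54 (SE 0.19, edgeR adjusted p = 0.0243), but it was -0.11 without the RemoLV libraries (adjusted p = 0.685), so the call and its direction rested on these 3 libraries. The adjusted p was 0.052 without library 1 of DOX and 0.05 without library 3 of RemoLV, where the gene was no longer called. Against Hyper the value was 0.28 (interval -0.29 to 0.84, edgeR adjusted p = 0.457). Against Control GADD45A was at -0.63 in DOX (edgeR adjusted p = 0.0895) and -0.39 in MYO (adjusted p = 0.291). The DOX value was called without library 2 of Control (-0.93, edgeR adjusted p = 0.0121) and without library 1 or 5 of DOX (adjusted p = 0.0481 and 0.0282). Under the names of the table the values turned to 1.68 in DOX (edgeR adjusted p = 5.43e-04) and 2.04 in MYO (adjusted p = 1.07e-04).

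BBC3 encodes PUMA, a BH3-only protein that frees BAX and BAK1 from BCL2 and its relatives (ENSSSCG00000003112, chr6:53037103-53046902, minus strand). It was near the lower limit of detection, with 4 to 46 counts per library. The DOX libraries had 2.56, 1.27, 1.60, 1.41 and 3.36 CPM, and the MYO libraries 2.61, 1.94, 2.96, 2.42 and 2.88 CPM. RemoLV reached 1.90, 2.59 and 2.05 CPM, within the drug range. Hyper had 1.03, 0.753 and 1.21 CPM and Control 0.821, 0.772 and 0.282 CPM, and each of these 6 libraries was below each drug library. The difference was 2.04-fold against the 3 other groups (log2 fold change 1.03, SE 0.22, edgeR adjusted p = 0.00106) and 2.27-fold against Hyper (1.18, SE 0.33, adjusted p = 0.0112). Without library 2 of Hyper the latter was 1.02 (adjusted p = 0.0673), and the former was 1.52 without the RemoLV libraries and 1.60 without library 2 of Control as well. Against Control, BBC3 rose by 1.68 in DOX (SE 0.38, edgeR adjusted p = 0.002) and by 2.01 in MYO (SE 0.38, adjusted p = 4.93e-04), and by 1.79 in RemoLV (SE 0.41, adjusted p = 0.00162). By the table's names the same comparisons of DOX and MYO gave -0.21 and 0.31 and were not called (edgeR adjusted p = 0.649 and 0.496).

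ZMAT3, an RNA-binding zinc finger protein that acts on splicing and RNA stability downstream of p53, is encoded at chr13:117113272-117147639 on the minus strand (ENSSSCG00000033860). It was at 18.8, 21.8, 20.7, 17.4 and 28.8 CPM in DOX and at 25.0, 19.3, 13.1, 15.9 and 21.3 CPM in MYO. RemoLV libraries had 10.6, 14.7 and 10.7 CPM, Hyper 16.9, 11.6 and 16.5 CPM, and Control 17.1, 14.8 and 16.3 CPM. The drug libraries overlapped each other group, with 17.4 CPM in the lowest DOX, 13.1 CPM in the lowest MYO and 17.1 CPM in the highest library without drug. The log2 fold change was 0.50 (SE 0.13, edgeR adjusted p = 0.004) against the 3 other groups and 0.43 (interval 0.04 to 0.82, adjusted p = 0.0869) against Hyper. Without library 3 of MYO the latter was 0.48 and called (edgeR adjusted p = 0.0423), and without RemoLV and library 2 of Control the former was 0.33 and not called (adjusted p = 0.0877). Against Control it was at 0.42 in DOX (edgeR adjusted p = 0.104) and 0.24 in MYO (adjusted p = 0.362), and by the table's names at 0.79 and 0.71 (adjusted p = 0.00969 and 0.0178).

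**Figure D2:**
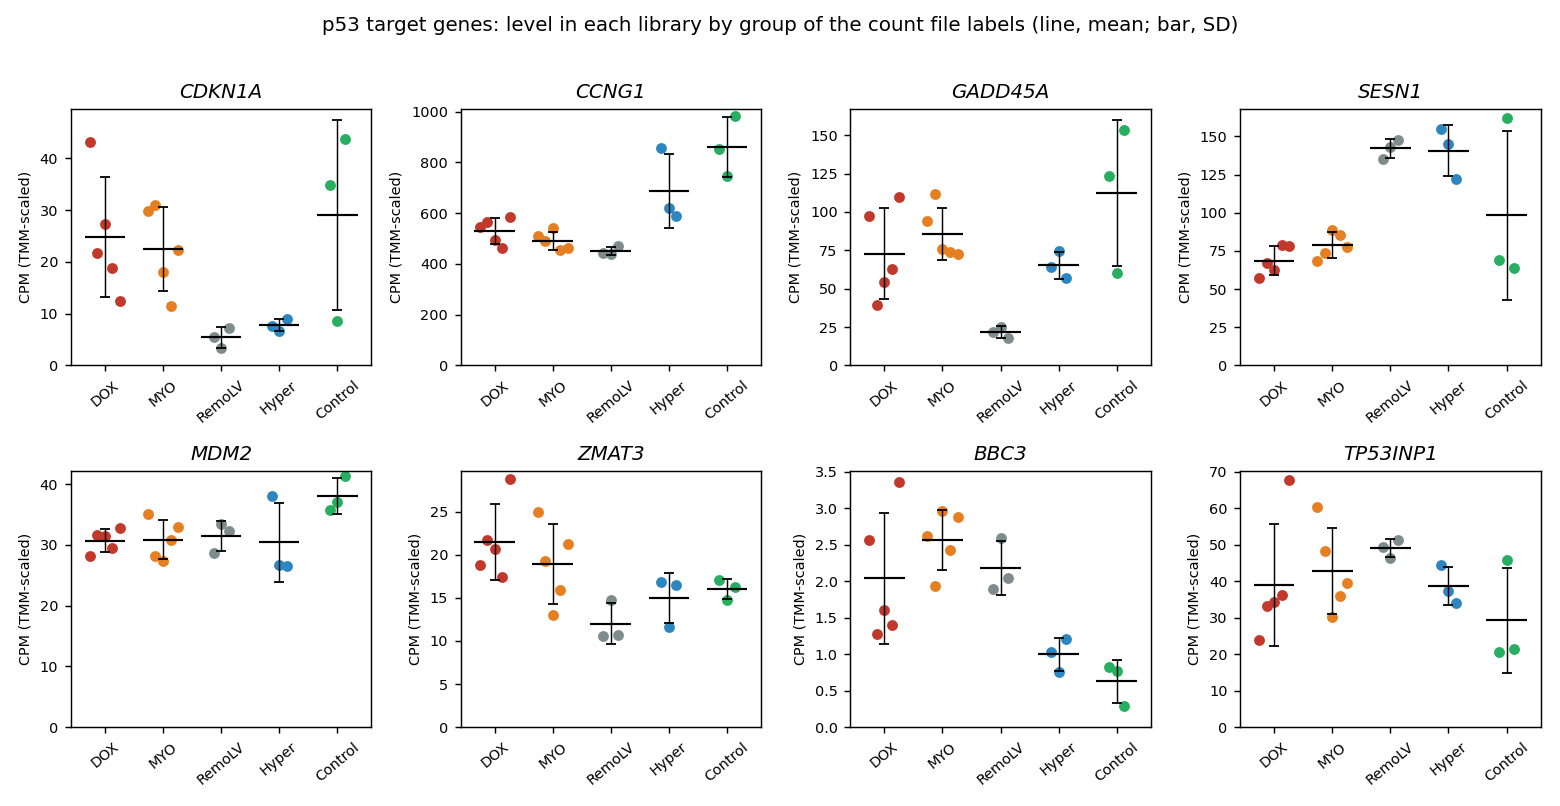
Each panel plots the level of 1 target gene in TMM-scaled CPM for every library by group of the count file labels, with the group mean as a line and the SD as a bar. CDKN1A in Control lies at 34.9, 8.55 and 43.7 CPM, so that its SD of 18.3 CPM spans most of the range of all libraries, while MDM2 stays between 26.6 and 41.3 CPM in all 19.

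SESN1 encodes sestrin 1, a stress-induced protein that lowers mTORC1 signaling (ENSSSCG00000004390, chr1:75056731-75170374, minus strand). In the leading comparisons it moved in the direction opposite to CDKN1A. DOX libraries had 57.3, 66.7, 62.7, 78.7 and 77.9 CPM and MYO libraries 68.5, 73.4, 88.9, 85.7 and 77.3 CPM. RemoLV stood at 135.3, 143.2 and 147.8 CPM and Hyper at 154.7, 145.0 and 122.3 CPM, all of them above all drug libraries. Control held 69.0 and 63.8 CPM in libraries 1 and 3, within the drug range, and 161.9 CPM, the highest of all, in library 2. SESN1 fell by 0.77 on the log2 scale against the 3 other groups (SE 0.14, edgeR adjusted p = 2.38e-04) and fell by 0.94 against Hyper (SE 0.19, adjusted p = 0.00104). The first value was -0.68 without the RemoLV libraries and -0.41 without library 2 of Control as well, and SESN1 was still called (edgeR adjusted p = 0.00271 and 0.00177). Against Control it was -0.52 in DOX (adjusted p = 0.0616) and -0.32 in MYO (adjusted p = 0.246) in edgeR's test, and without library 2 of Control both values turned positive (0.05 and 0.24). The DOX value was called without library 1 of Control (-0.72, edgeR adjusted p = 0.0205), without library 3 (-0.75, adjusted p = 0.0147) and in DESeq2 (adjusted p = 0.0402). By the table's names SESN1 was lower than Control in both DOX (-1.09, edgeR adjusted p = 7.39e-04) and MYO (-0.82, adjusted p = 0.00668).

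The 19 libraries fell into separate sets by these 2 genes. The 7 libraries with less than 9 CPM of CDKN1A, namely RemoLV, Hyper and library 2 of Control, had 122.3 CPM of SESN1 or more. The other 12 libraries, with 11.4 CPM of CDKN1A or more, had at most 88.9 CPM of SESN1. Library 2 of Control and library 1 of Hyper were nearest to each other over all genes (rank correlation 0.9916).

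**Figure D3:**
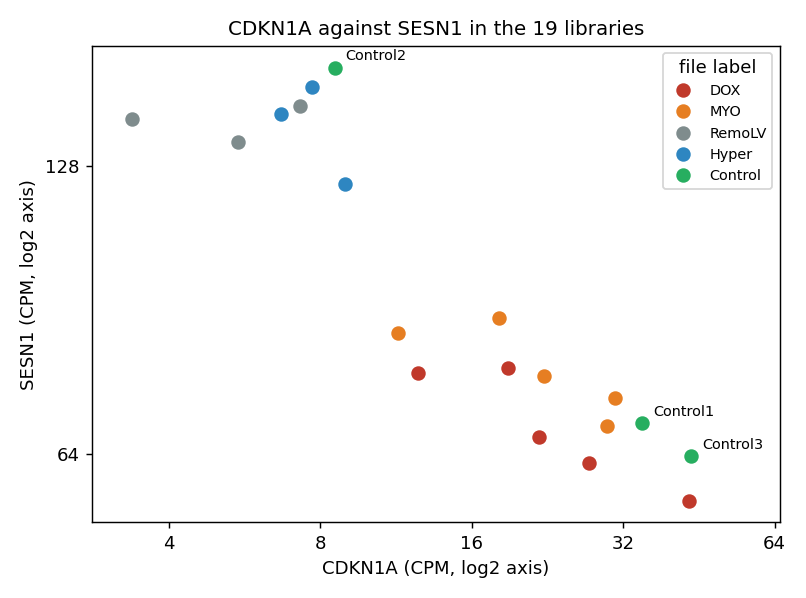
SESN1 is plotted against CDKN1A in CPM on log2 axes, with 1 point per library colored by the label of its count file and the Control libraries named. Libraries 1 and 3 of Control lie among DOX and MYO at 69.0 and 63.8 CPM of SESN1, and library 2 lies with Hyper and RemoLV at 161.9 CPM.

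CCNG1 encodes cyclin G1, which recruits phosphatase PP2A to MDM2 (ENSSSCG00000017024, chr16:60349255-60356737, minus strand). DOX libraries had 546.6, 565.3, 492.6, 463.3 and 584.3 CPM and MYO libraries 509.0, 489.5, 542.6, 453.9 and 464.5 CPM. RemoLV was at 443.8, 437.6 and 470.2 CPM, overlapping the drug libraries. Hyper reached 855.4, 618.7 and 589.2 CPM and Control 854.8, 746.8 and 982.8 CPM, and each of these 6 libraries was above each of the 10 drug libraries. CCNG1 fell by 0.33 against the 3 other groups (SE 0.08, edgeR adjusted p = 0.00206) and fell by 0.43 against Hyper (SE 0.11, adjusted p = 0.00593). Without the RemoLV libraries the first of these was -0.59, and without library 2 of Control as well it was -0.66. The margin to Hyper was small, 584.3 against 589.2 CPM, and without library 1 of Hyper the change was -0.24 and not called (edgeR adjusted p = 0.125). Against Control it fell by 0.70 in DOX (SE 0.12, adjusted p = 2.59e-04), by 0.81 in MYO (SE 0.12, adjusted p = 7.37e-05) and by 0.94 in RemoLV (SE 0.14, edgeR adjusted p = 4.13e-05). By the table's names DOX and MYO were at 0.19 and 0.17 against Control, with edgeR adjusted p-values of 0.267 and 0.341.

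MDM2, the ubiquitin ligase that is both target and inhibitor of p53, was the steadiest of the target genes, with group means of 30.4 to 38.0 CPM (ENSSSCG00000000488, chr5:33105717-33137602, plus strand). DOX libraries had 28.2, 31.6, 31.5, 29.5 and 32.9 CPM and MYO libraries 35.1, 28.1, 27.4, 30.7 and 33.0 CPM. The level was 28.6, 33.5 and 32.3 CPM in RemoLV, 38.0, 26.6 and 26.6 CPM in Hyper and 35.7, 37.1 and 41.3 CPM in Control. The interval of the log2 difference was -0.27 to 0.05 against the 3 other groups and -0.21 to 0.25 against Hyper. Only Control stood above all drug libraries: the gene fell by 0.31 on the log2 scale in DOX (SE 0.12, edgeR adjusted p = 0.0454), and MYO was at -0.30 (adjusted p = 0.0506). The DOX call was lost with each single Control library left out and without DOX library 1, 2, 3 or 4, with adjusted p-values of 0.0564 to 0.192. It was also lost with no filter on low counts (edgeR adjusted p = 0.0654) and with the replicate block (adjusted p = 0.0753). By the table's names DOX was at -0.016 (edgeR adjusted p = 0.934). The MYO value was called in DESeq2 (adjusted p = 0.0285), with RLE scaling (edgeR adjusted p = 0.035) and with only the groups compared in the fit (adjusted p = 0.046).

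TP53INP1 encodes a p53-induced nuclear protein that promotes autophagy and p53 phosphorylation (ENSSSCG00000034321, chr4:41747654-41766688, plus strand). DOX libraries had 23.8, 33.2, 34.2, 36.1 and 67.6 CPM and MYO libraries 60.4, 48.2, 30.1, 36.0 and 39.6 CPM. RemoLV was at 49.5, 46.5 and 51.4 CPM, Hyper at 44.4, 37.3 and 34.1 CPM, and Control at 20.5, 45.9 and 21.3 CPM. The drug libraries held the highest values and overlapped each other group, and libraries 1 and 3 of Control were the lowest of all. The log2 difference was 0.10 (interval -0.29 to 0.49, edgeR adjusted p = 0.693) against the 3 other groups and 0.08 (-0.48 to 0.65, adjusted p = 0.842) against Hyper. Without the RemoLV libraries the former was 0.28, and without library 2 of Control as well it was 0.51 (edgeR adjusted p = 0.318 and 0.0579). Against Control it was at 0.41 in DOX (edgeR adjusted p = 0.288), 0.55 in MYO (adjusted p = 0.153) and 0.75 in RemoLV (adjusted p = 0.0748). Without library 2 of Control all 3 were called higher, at 0.90 in DOX (edgeR adjusted p = 0.026), 1.04 in MYO (adjusted p = 0.012) and 1.23 in RemoLV (adjusted p = 0.00525).

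The order of the group means differed from gene to gene. Control led for CDKN1A, MDM2, GADD45A and CCNG1, MYO for BBC3, RemoLV for SESN1 and TP53INP1, and DOX for ZMAT3. By the table's names RemoLV led for CDKN1A, MDM2, GADD45A and CCNG1 and Control for SESN1 and TP53INP1, with MYO and DOX still first for BBC3 and ZMAT3. Highest and lowest mean differed 5.38-fold for CDKN1A, 5.20-fold for GADD45A and 4.10-fold for BBC3, and 1.25-fold for MDM2. For CDKN1A the Control, DOX and MYO means of 29.1, 24.8 and 22.5 CPM lay within each other's SD (18.3, 11.6 and 8.15 CPM), and the Hyper and RemoLV means of 7.79 and 5.39 CPM followed.

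Against Control by the file labels, 3 of 8 target genes were called in DOX (1 higher, 2 lower) beside 42.1% of all genes, 2 in MYO (BBC3 and CCNG1) beside 42.4%, and 4 in RemoLV beside 47.2%. In RemoLV, CDKN1A fell by 2.44 (SE 0.52, edgeR adjusted p = 9.94e-04) and GADD45A by 2.37 (SE 0.35, adjusted p = 3.6e-05), next to BBC3 and CCNG1 above. These comparisons share their Control libraries, and their sides change where the table's names are used. Between Hyper and Control 0 of 8 target genes and 0.0% of all genes were called by edgeR. At an unadjusted p under 0.05 there were 5 target genes and 2418 of all genes, and DESeq2 called 312 genes, CDKN1A among them (-1.92, adjusted p = 0.0101). Without library 2 of Control edgeR called 18.4% of all genes and 3 of the 8, CDKN1A (-2.33, adjusted p = 0.00204), GADD45A (-1.09, adjusted p = 0.023) and SESN1 (1.08, adjusted p = 2.95e-04). Without library 1 of Hyper, MDM2 (-0.52, edgeR adjusted p = 0.029) and CCNG1 (-0.51, adjusted p = 0.0336) were called.

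Free and liposomal doxorubicin were given at the same dose and in the same number of cycles, and none of the 8 target genes differed between DOX and MYO in edgeR's test, as none of all genes did (0.0%). At an unadjusted p under 0.05 there were 0 target genes and 960 of all genes, and DESeq2 called 2 genes, neither of them a target gene described here. The estimates ran from -0.33 for BBC3 (95% interval -0.93 to 0.27) to 0.18 for ZMAT3 (-0.18 to 0.55). The interval was narrow for MDM2 (-0.23 to 0.21) and wide for CDKN1A (-0.64 to 0.92). Library 5 of DOX and library 1 of MYO carry each other's name in the table. They held the highest levels of TP53INP1 (67.6 and 60.4 CPM) and ZMAT3 (28.8 and 25.0 CPM) of all libraries.

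The regulators of p53 were measured in the same libraries. MDM4 fell from 13.3 ± 2.85 CPM (SD, n = 9) to 6.02 ± 1.31 CPM (SD, n = 10), a log2 fold change of -1.14 (SE 0.15, edgeR adjusted p = 9.96e-06), and of -1.30 against Hyper (adjusted p = 7.43e-05). The drug libraries had at most 8.05 CPM of MDM4 and the other 9 libraries at least 8.81 CPM, a separation seen in 3.11% of all genes. HIPK2, a kinase that phosphorylates p53 toward apoptosis, fell by 1.68 (edgeR adjusted p = 5.67e-06), and it fell by 2.13 against Hyper. TRIM24, a ligase for p53, fell by 0.39. TP73, a p53 relative at a mean of only 0.674 CPM in the drug libraries, rose by 1.16 (edgeR adjusted p = 0.0436) but was not called against Hyper (adjusted p = 0.138). Of 16 regulators tested, 5 fell, beside 21.8% of all genes.

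Of the sensors and kinases upstream of p53, 3 of 17 tested rose and 6 fell in DOX and MYO against the other 3 groups. The checkpoint kinase genes CHEK2 (0.86, edgeR adjusted p = 0.00132) and CHEK1 (0.57, adjusted p = 0.0141) and the scaffold gene MDC1 (0.39, adjusted p = 2.46e-05) rose. RNF168, a ubiquitin ligase at breaks, and the Ku genes XRCC6 and XRCC5 fell by 0.45, 0.36 and 0.27. ATM fell by 0.26 (edgeR adjusted p = 0.017), and ATR was at -0.08 (adjusted p = 0.483). Since 45.5% of all genes were called, the 9 of 17 called here are near the background. Against Hyper, CHEK1 and ATM were not called (edgeR adjusted p = 0.0967 and 0.142), while CHEK2, MDC1, RNF168, XRCC6 and XRCC5 were.

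Further p53 targets also moved in both directions. Of 40 listed, 33 were tested, and 10 rose, 2 fell and 21 did not pass, with a median log2 fold change of 0.18. PLK3, a stress-induced kinase, rose by 1.30 (edgeR adjusted p = 0.0021) but was not called against Hyper (1.13, adjusted p = 0.0619). AEN, an exonuclease of the apoptotic response, rose by 1.22 (edgeR adjusted p = 1.38e-07), and by 1.45 against Hyper (adjusted p = 4.6e-06). AEN went from 12.0 ± 3.48 CPM (SD, n = 9) to 27.6 ± 3.33 CPM (SD, n = 10). RPS27L and TRIAP1 fell by 0.35 and 0.33. Of all genes, 23.7% rose and 21.8% fell.

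Relatives of the target genes and the BCL2 family were compared as well. Of 10 relatives tested, 3 rose and 3 fell, beside 23.7% and 21.8% of all genes. BOK and BAK1, relatives of BAX that permeabilize mitochondria, rose by 1.27 (edgeR adjusted p = 3.67e-08) and 0.80 (adjusted p = 3.83e-06), and GADD45G rose by 0.94 (adjusted p = 0.0103). The p21 relatives CDKN1C and CDKN1B fell by 0.87 and 0.46 and CCNG2 by 0.51. In the BCL2 family, which shares BOK and BAK1 with this list, 3 of 9 tested rose and 0 fell, where 23.7% of all genes rose and 21.8% fell, the third being the anti-apoptotic BCL2L1 (0.47, edgeR adjusted p = 0.00644), which was at 0.04 against Hyper (adjusted p = 0.891). Of the 10 relatives, 2 rose and 1 fell against Hyper, beside 15.8% and 16.9% of all genes. GADD45G, CDKN1C and CCNG2 were not called there (edgeR adjusted p = 0.0536, 0.106 and 0.142).

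Of the cell cycle genes that p21 is known to repress, 19 were tested, and 12 rose, 1 fell and 6 did not pass in DOX and MYO against the other 3 groups, beside 23.7% higher and 21.8% lower of all genes. The median log2 fold change of the list was 1.01 and that of all genes 0.01. CENPA, a centromeric histone, rose by 1.66 (edgeR adjusted p = 1.72e-04) and by 2.03 against Hyper (adjusted p = 0.0026), MKI67, the Ki-67 proliferation marker, by 1.33 (adjusted p = 9.18e-04) and the transcription factor gene FOXM1 by 1.23 (adjusted p = 0.00201). Their levels were low, at 1.94 ± 0.432, 10.6 ± 3.51 and 1.92 ± 0.477 CPM (SD, n = 10) in DOX and MYO. NUSAP1, a spindle protein, fell by 0.59 and was not called against Hyper (edgeR adjusted p = 0.0725). Without the RemoLV libraries 15 rose and 1 fell, beside 25.4% and 24.7% of all genes.

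**Figure D4:**
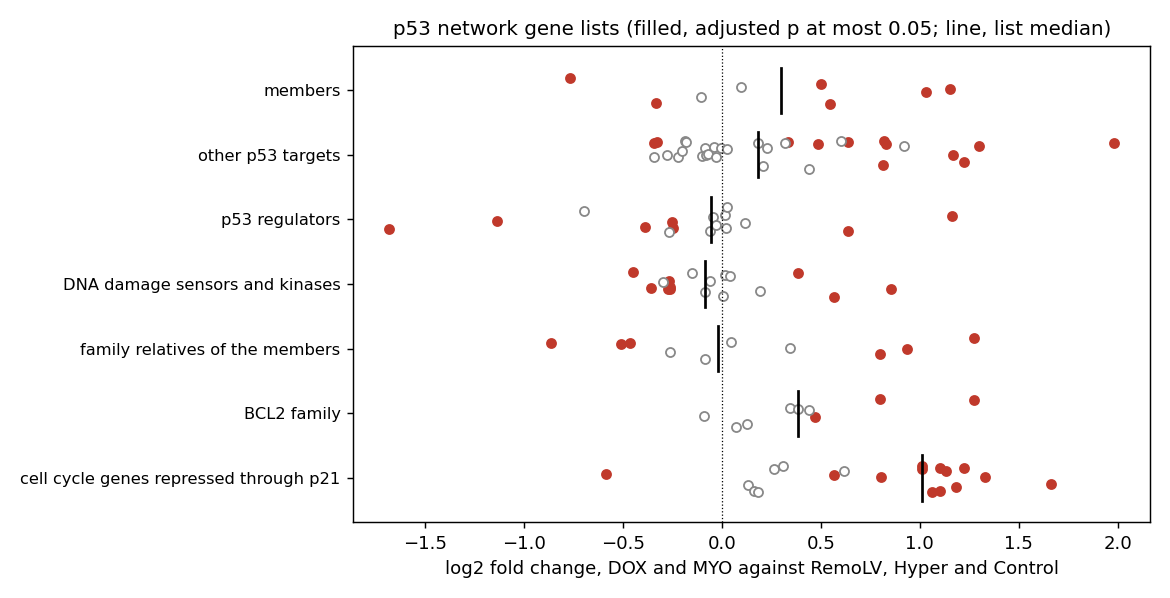
Each point is 1 gene of the p53 network, placed by its log2 fold change in DOX and MYO against RemoLV, Hyper and Control, with 1 row per gene list, filled points for an adjusted p of at most 0.05 (edgeR) and a line at the median of the list. The cell cycle genes lie furthest to the right with a median of 1.01, and the sensors and kinases lie around a median of -0.08.

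Within groups, the genes whose levels followed CDKN1A and MDM2 most closely were different ones. After the mean of each group was subtracted from the log2 CPM values of the 19 libraries, DUSP8, GPAT4 and PPP2CA had the highest correlation with CDKN1A (Pearson r = 0.90, 0.886 and 0.885), and without the 3 Control libraries r was 0.808, 0.801 and 0.78. For MDM2 these were LATS1, SOCS6 and SCAF11 (r = 0.917, 0.91 and 0.894, and 0.913, 0.934 and 0.889 without Control). The points share their libraries and their depth, and the values are given as a description of the pattern only. None of the other target genes was among the closest 3 for either gene.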

How the data were processed

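Poly(A) RNA of LV myocardium from 19 pigs was sequenced in read pairs. Per the labels and methods, the authors aligned the reads with STAR to Sscrofa11.1, HTSeq 0.11.1 counted them in the Ensembl gene model (union mode, reverse stranded), and the deposited files hold these raw counts. A second deposited table of the authors gives log2 values for 14744 genes and was used here for symbols and for the match of its column names to the files. Its fold changes and adjusted p-values are the authors' own comparisons and were not used. The target genes, gene lists and markers were chosen with earlier results of these data known.

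Groups were taken from the labels of the count files. Genes with low counts were removed with filterByExpr, libraries were scaled by TMM, and all 5 groups were fitted in 1 model without a block in edgeR 4.0.16 (R 4.3.3). CPM values are counts scaled to library size by TMM. Called means an adjusted p of at most 0.05 over 13552 genes. Named were all members, the called genes with the 3 largest changes in each direction per list, MDM4, and list genes called with a log2 fold change of at least 2. ATM, ATR, MYL2, MYL4, MYL7, IRX4, DDX3Y and the single fibroblast markers were named in addition, after their values were seen. Some genes that this rule names are not reported here. Likeness was Pearson's r of log2 CPM (prior count 2). The motif search used the RefSeq genome and gene starts of the same build. In simulated counts for DOX and MYO against the other 3 groups, with 13552 genes, 89% of genes changed by 1 and 99% of those changed by 2 on the log2 scale were recovered. At a change of 1 this was 83% for DOX and MYO against Hyper and 73% for DOX against Control. The changed genes all had a mean of at least 2 CPM, so these rates do not cover BBC3 or the lowest list genes. Their share of all genes was far below the 45.5% called in the data. Alternatives were DESeq2 1.42.0, RLE scaling, other filters, the groups compared only, the table's names, a replicate block and each library left out. No 2 libraries of a group agreed within sampling noise.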

Additional observations from a re-analysis of the deposited data

Results flagged for a closer look

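In a group of 4 to 10 libraries, 1 value stood apart from the rest by Dixon's test: TP53INP1 at 67.64 CPM in library 5 of DOX, whose gap to the next DOX library was 0.719 of the range of the group. The other 4 DOX libraries had 23.8 to 36.1 CPM. In all, 16 sets (8 genes in 2 groups of 5) were tested, and chance marks about 1 in 20. This library is named MYO1 in the authors' table, and it also had the highest ZMAT3 (28.8 CPM) and BBC3 (3.36 CPM) of all 19 libraries. Without it, TP53INP1 was at -0.05 on the log2 scale against the 3 other groups.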

How the results depend on the processing

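Of 953 alternative fold changes of the target genes, 857 kept direction and call, 21 lost the call, 25 gained it and 50 changed sign. The count of 6 called target genes against the 3 other groups became 3 without the RemoLV libraries and library 2 of Control (chosen after the data were seen), where GADD45A was at -0.28, and 4 without RemoLV alone (GADD45A -0.11). Leaving out single libraries gave 5 to 6 there, 2 to 5 against Hyper, 2 to 4 for DOX, 2 to 3 for MYO, 4 to 6 for RemoLV and 0 to 3 for Hyper against Control, and 0 for DOX against MYO. DESeq2 called 1 target gene between Hyper and Control. At a minimum of 10 counts in every library MYO against Control kept 1 call, since BBC3 was not tested, and the cell cycle list had 11 genes left with 7 called. By the table's names 3 were called for Hyper and 4 for MYO against Control, beside 35.8% and 29.2% of all genes. The cause of other changes was not tested.

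With the table's names these values changed sign. DOX against Control gave BBC3 -0.21, CCNG1 0.19, CDKN1A 2.41, GADD45A 1.68 and TP53INP1 -0.39. MYO against Control gave CCNG1 0.17, CDKN1A 1.84, GADD45A 2.04 and TP53INP1 -0.15. RemoLV against Control gave BBC3 -1.79, CCNG1 0.94, CDKN1A 2.44, GADD45A 2.37, MDM2 0.27, SESN1 -0.53, TP53INP1 -0.75 and ZMAT3 0.42. Hyper against Control gave BBC3 -1.12, CCNG1 0.61, CDKN1A 0.55, GADD45A 1.59, SESN1 -0.0143, TP53INP1 -0.35 and ZMAT3 0.32. DOX against MYO gave MDM2 0.034.

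Equal replicate numbers did not pair the pigs (correlation of deviations -0.246 to 0.242 over 32 pairs, and 4 of 19 libraries closest to their own number). With the replicate block 5 target genes were called against the 3 other groups (GADD45A adjusted p = 0.0892 in edgeR), 4 against Hyper, and 2 for DOX against Control, beside 36.1%, 26.6% and 35.4% of all genes. CDKN1A was at 0.15 in DOX and 0.0903 in MYO against Control, MDM2 at -0.0007 and TP53INP1 at -0.035 against Hyper, and TP53INP1 at -0.0076 against the 3 other groups.

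With single libraries left out, CDKN1A ranged from -0.66 to 0.20 in DOX and -0.80 to 0.06 in MYO against Control and -0.16 to 0.30 for DOX against MYO. MDM2 ranged from -0.0721 to 0.21 against Hyper and -0.0485 to 0.0427 for DOX against MYO. SESN1 ranged from -0.75 to 0.0471 in DOX and -0.55 to 0.24 in MYO against Control. TP53INP1 ranged from -0.0465 to 0.26 against the 3 other groups, -0.0638 to 0.19 against Hyper and -0.43 to 0.017 for DOX against MYO. ZMAT3 ranged from -0.19 to 0.0569 for Hyper against Control. RLE scaling and scaling by total counts together moved 8 of 80 group means by 1 SD or more.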
